A study of Mus musculus with 12 samples.

Results

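Motile cilium genes were followed through 12 RNA sequencing libraries from the brains of aged mice. The group held Foxj1 and every gene whose mouse symbol begins with Dnah, Dnai, Cfap, Tekt or Rsph followed by a number, which gave 65 of the 41388 genes counted. The symbols came from the GENCODE names of the Ensembl identifiers for 60 of them. For 3 they came from the RefSeq symbol (Cfap20dc, Cfap47 and Cfap410), and for 2 from a RefSeq synonym (Dnai1 and Dnai2, named Dnaic1 and Dnaic2 there). Dnah2os, a noncoding antisense gene of Dnah2, is a member by its symbol only.

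The mice were on a C57BL/6 background and carried loxP-flanked Bmal alleles, the Bmal1 gene being listed as Arntl. Mice labelled KO were positive, and mice labelled WT negative, for ALDH1L1-CreERT2, a tamoxifen-dependent Cre recombinase whose Aldh1l1 promoter drives expression in astrocytes. Tamoxifen was given to both kinds (2 mg daily, 5 days, from an age of 2 months), and the mice were 20 months old at collection. Beads against the ACSA-2 antigen captured the astrocytes, and the uncaptured cells made up the flowthrough. There were 4 KO and 4 WT astrocyte libraries, 1 from each of 8 mice, and 2 KO and 2 WT flowthrough libraries from 4 of the same mice. Each library carries its label, its fraction and the number of its mouse as a name.

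Motile cilia are hair-like organelles that beat. Their core, the axoneme, is a ring of doublet microtubules around a central pair: dynein arms on the doublets supply the force, radial spokes pass signals from the central apparatus to the arms, and tektins and other proteins line the inside of the doublets. FOXJ1 is the transcription factor that switches on the genes of this structure. In the brain, ependymal cells, which line the ventricles and move cerebrospinal fluid, carry many motile cilia, and the epithelium of the choroid plexus also carries cilia.

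Libraries held 38.7 to 51.6 M counts, M being a factor of 1e+06. CPM are counts per M of a library's total, and a floor of 3 counts came to 0.0582 to 0.0775 CPM. Counts of the targeted gene Arntl ran against the labels: they were higher in KO than in WT astrocytes. Its TMM-scaled CPM was 13.3, 9.50, 10.1 and 12.1 in the KO astrocyte libraries (132, 60, 62 and 73). The WT astrocyte libraries (56, 57, 64 and 78) had 7.52, 6.96, 5.39 and 8.81. The means were 11.2 ± 1.8 and 7.17 ± 1.4 (SD, n = 4 each; two-sided exact permutation p = 0.0286, the smallest that 4 against 4 allows). The count covers all exons of the gene, and no source used here says which exons are floxed, so KO and WT below mean libraries with that label. KO astrocytes 73 and WT astrocytes 78 had 2411 and 1133 counts of Xist, the RNA of the inactive X chromosome, and the other libraries had 0 to 10. For Xist and the Y chromosome genes Ddx3y, Uty, Kdm5d and Eif2s3y, log2(CPM + 0.1) was set against each gene's mean over the 12 libraries. The median difference was -5.20 in KO 73, -5.70 in WT 78 and 0.83 to 1.57 in the others. KO 73 and WT 78 were therefore read as female, and all other libraries, flowthrough included, as male.

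Levels were compared between genes as CPM per kilobase of exon (RPKM), TMM-scaled and averaged over the 12 libraries. The radial spoke genes Rsph1 (67.3 RPKM) and Rsph9 (50.5 RPKM) were the highest members. Among proteins inside the doublets, Cfap20 stood at 38.0 RPKM, Cfap126 at 32.8 RPKM and Cfap161 at 14.9 RPKM. Tekt1 led the tektins at 31.0 RPKM, followed by Tekt4 at 6.31 RPKM and Tekt5 at 5.98 RPKM. The dynein arm assembly factors Cfap298 and Cfap300 had 25.02 and 8.90 RPKM. Foxj1 itself (chromosome 11, 116330704 to 116335399, GRCm38) stood at 3.28 RPKM.

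The subunits of the dynein arms lay far apart. The intermediate chains Dnai1 and Dnai2 had 18.1 and 5.32 RPKM. The outer arm heavy chains of cilia, which are the motors, had 0.363 RPKM for Dnah5, 0.344 RPKM for Dnah9 and 0.242 RPKM for Dnah11. The inner arm heavy chains were led by Dnah6 (0.817 RPKM), Dnah12 (0.673 RPKM) and Dnah1 (0.629 RPKM). The outer arm heavy chains of sperm flagella, Dnah8 (0.0901 RPKM) and Dnah17 (0.0233 RPKM), were the low end of the motors. Among central apparatus proteins Cfap70 led at 3.03 RPKM, and among proteins at the spoke base and the inner arm tether Cfap206 led at 7.48 RPKM. Near-identical copies (Dnah7a, Dnah7b and Dnah7c; Rsph3a and Rsph3b) can share reads, and 5 members share over 10% of their exon length with another gene (Cfap157, Rsph10b, Rsph3a, Tekt2 and Dnah2os), so their values are uncertain.

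**Figure D1:**
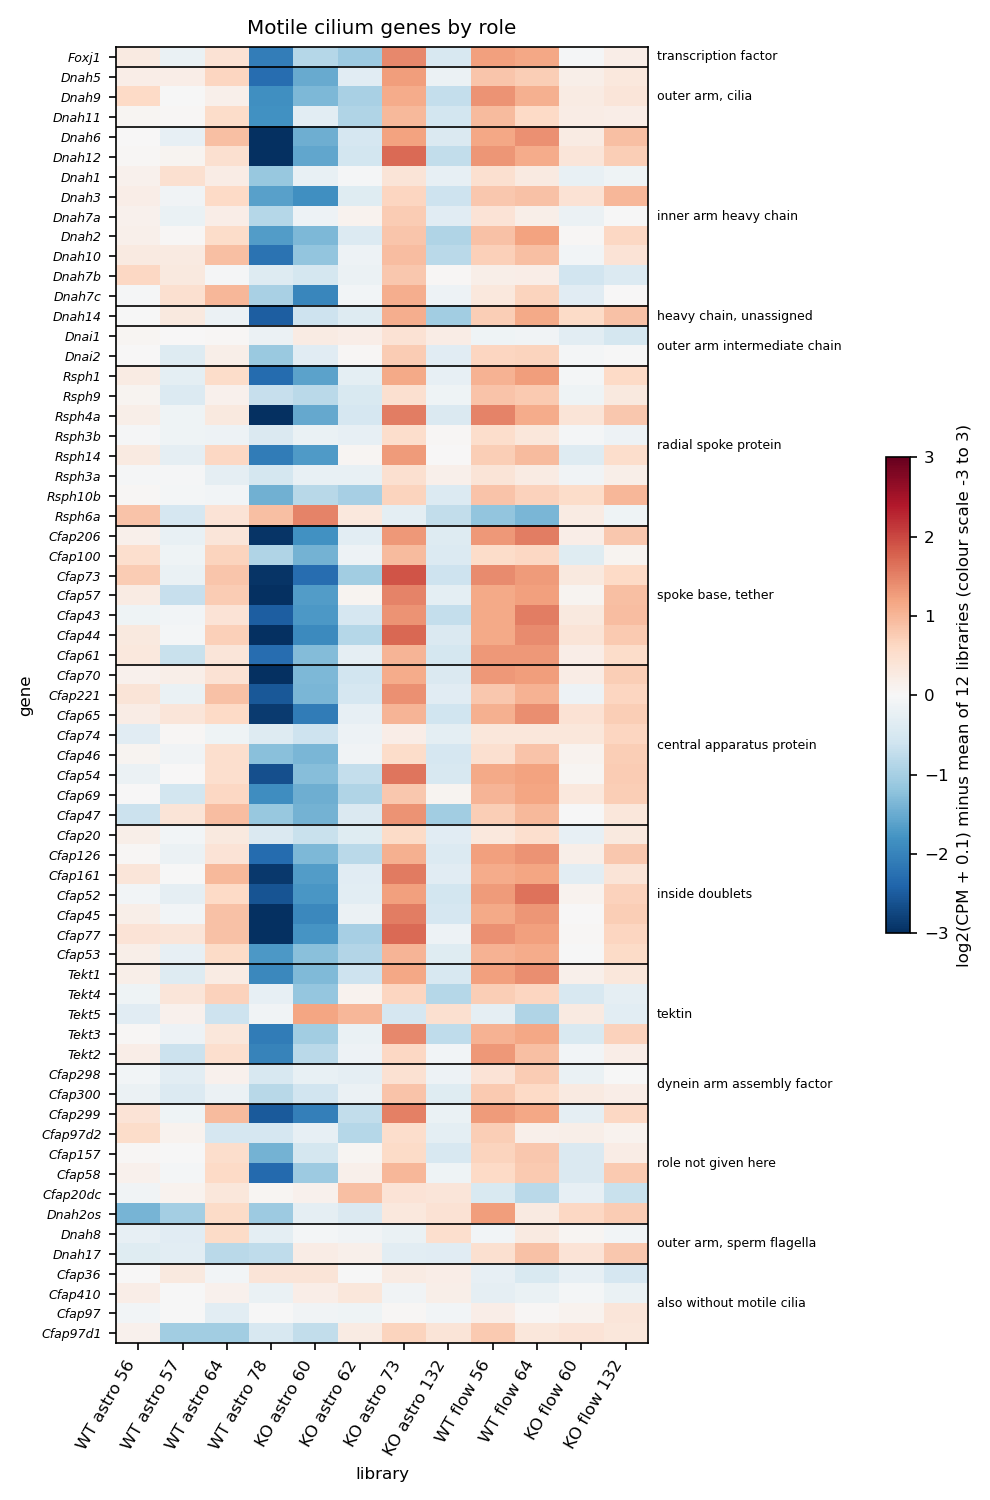
Colour gives log2(CPM + 0.1) of each of the 65 members minus the gene's mean over the 12 libraries, with rows grouped by role and columns by label and fraction. Most rows are darkest blue in WT astrocytes 78 and red in KO astrocytes 73 and both WT flowthrough libraries, while Dnai1, Cfap36, Cfap97 and Cfap410 change little and Tekt5 runs apart from that pattern.

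Most members went up and down together from library to library, and the 2 libraries at the ends carried different labels. Foxj1 had 4.91, 3.77, 3.20 and 19.0 CPM in KO astrocytes 132, 60, 62 and 73. In WT astrocytes 56, 57, 64 and 78 it had 8.42, 5.99, 9.32 and 1.58 CPM. The KO flowthrough libraries 132 and 60 held 7.99 and 6.74 CPM, and the WT flowthrough libraries 56 and 64 held 16.5 and 15.7 CPM. KO 73 was thus the highest astrocyte library and WT 78 the lowest, and the KO and WT astrocyte values overlapped.

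Rsph1, a protein of the radial spoke head, had 53.7, 21.0, 51.8 and 140 CPM in KO astrocytes 132, 60, 62 and 73. It had 75.2, 52.1, 92.8 and 12.8 CPM in WT astrocytes 56, 57, 64 and 78. Tekt1, a filament protein inside the doublets, had 29.2, 16.3, 26.4 and 91.0 CPM in the KO and 46.5, 31.4, 48.9 and 10.7 CPM in the WT astrocytes, in the same order. Both genes repeated the order of Foxj1 at its ends, with KO 73 highest and WT 78 lowest.

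Over the 65 members, the median of log2(CPM + 0.1) minus the gene's mean was 0.94 in KO astrocytes 73, -1.17 in KO 60, -0.35 in KO 132 and -0.28 in KO 62. It was -1.73 in WT astrocytes 78, -0.09 in WT 57, 0.13 in WT 56 and 0.43 in WT 64. For flowthrough the medians came to 0.40 (KO 132), 0.06 (KO 60), 0.81 (WT 56) and 0.89 (WT 64). The spread inside each astrocyte label was therefore wider than the gap between the labels.

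**Figure D2:**
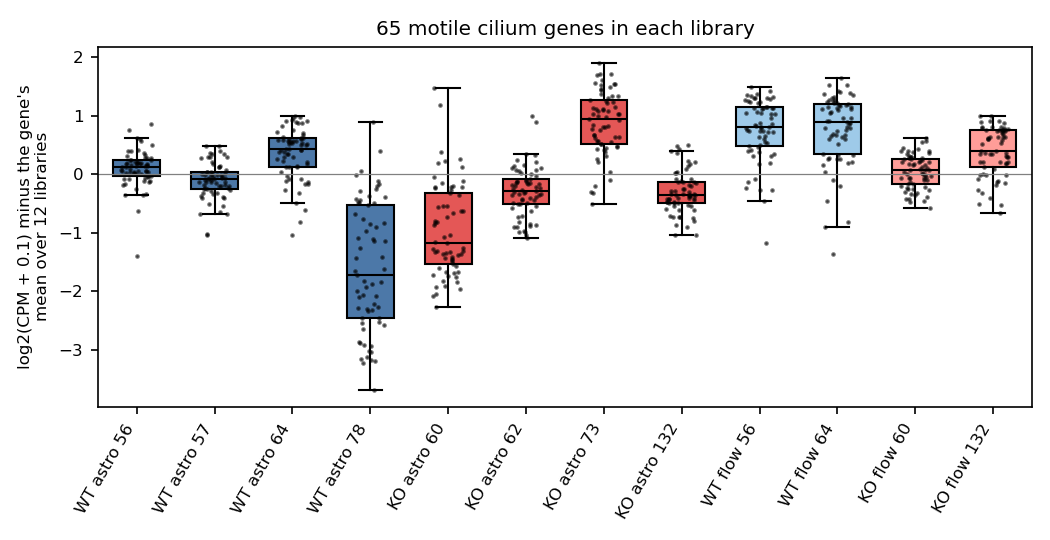
Each point is 1 of 65 members in 1 library, as log2(CPM + 0.1) minus its mean over the 12 libraries; boxes give the quartiles and the line the median. Blue is WT and red KO, with flowthrough in the paler shade; the medians run from -1.73 in WT astrocytes 78 to 0.94 in KO astrocytes 73.

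KO astrocytes 73 and WT astrocytes 78 were singled out after their values were seen, so what follows describes these libraries and is not a test. Of the 63 members that passed the low-count filter in astrocytes, 53 were highest in KO 73, as were 25.5% of all 18527 genes. WT 78 was lowest for 45 members, against 16.3% of all genes, and 43 members had both extremes, against 8.30% of all genes. With 0.1 CPM added to both libraries, the median ratio of KO 73 to WT 78 was 6.39 for the members and 0.990 for all genes. At least 10-fold ratios on that scale were found for 25 members and 1.78% of all genes.

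By role the ratios overlapped, and roles were not tested against each other. The ratio of CPM, with nothing added, was largest for Cfap77, a protein inside the doublets, at 61.4 (95% interval from exact counts 32.2 to 135, counting error only). Cfap73 and Cfap44, of the inner arm tether, had 42.9 and 33.8, and the inner arm heavy chain Dnah12 had 31.0. Foxj1 had 12.0 (9.40 to 15.7). The 7 spoke base and tether genes ran from 3.65 to 42.9 (median 19.9), and the 7 genes inside the doublets from 2.01 to 61.4 (median 14.5). The 8 central apparatus genes ran from 1.51 to 19.9 (median 11.4), the 9 inner arm heavy chains from 2.30 to 31.0 (median 5.06) and the 8 radial spoke genes from 0.318 to 27.2 (median 3.35).

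The ratio was under 2 for 13 members. Among them Rsph3b (1.94), Cfap298 (1.93) and Dnai1 (1.51) still had KO 73 highest and WT 78 lowest of the 8 astrocyte libraries. The ratio was 1.08 for Cfap410, 1.07 for Dnah8, 1.03 for Cfap97, 0.907 for Cfap36 and 0.758 for Tekt5, and none of these 5 had both of those extremes. Tekt5, a tektin known from sperm, was high in 3 of 4 KO astrocyte libraries, with 13.8, 22.4 and 19.6 CPM in KO 132, 60 and 62. It had 6.89 CPM in KO 73 and 7.75, 10.8, 6.38 and 9.09 CPM in WT 56, 57, 64 and 78. KO 73, the highest library for Foxj1, was thus the lowest KO library for Tekt5. Cfap36 and Cfap97, which are also expressed in cells without motile cilia, stayed within 52.1 to 73.0 and 16.2 to 20.6 CPM over the 8 astrocyte libraries.

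**Figure D3:**
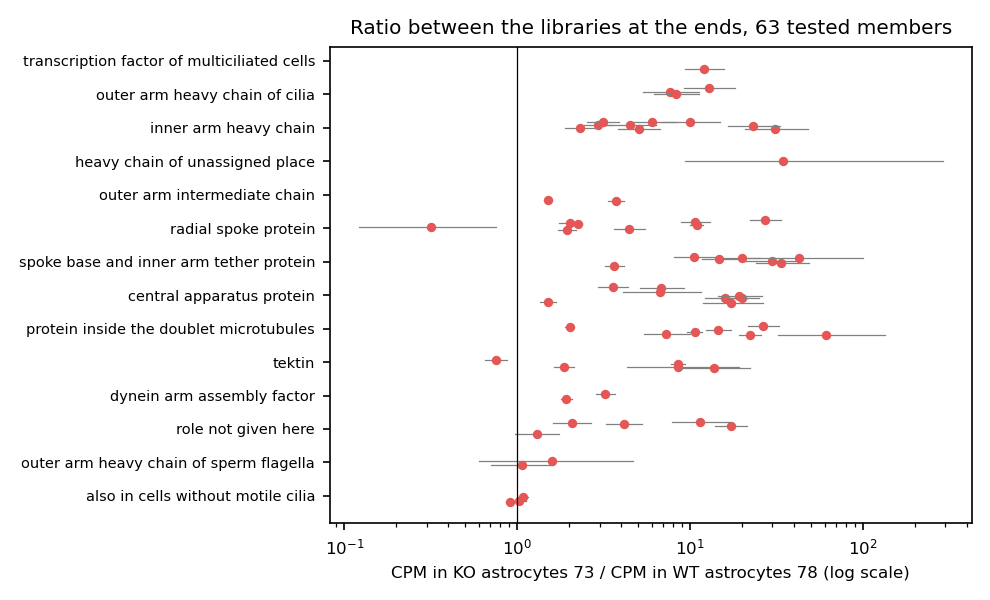
Points give the CPM in KO astrocytes 73 over that in WT astrocytes 78 (log axis) for the 63 tested members by role, with 95% intervals from exact counts that cover counting error only. The line marks a ratio of 1; Cfap77 is farthest to the right at 61.4 and Rsph6a, with few counts, farthest to the left at 0.318.

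The ependymal markers moved with the members, and KO 73 also stood apart in markers of other cell types, some higher and some lower. The list of 20 ependymal markers shares Trp73 with the multiciliation regulators counted below, so it is not a measure apart from cilium genes. All 20 were detected in every library, and their summed level in KO astrocytes was 551, 255, 504 and 1687 CPM in 132, 60, 62 and 73. In WT astrocytes it was 786, 590, 1131 and 140 CPM in 56, 57, 64 and 78. KO 73 also had the highest astrocyte-fraction sum of the 10 microglia markers (2883 CPM, against 598 to 1212 CPM in the other 7) and of the 12 choroid plexus markers (9602 CPM, against 1859 to 5981 CPM). Its sum of the 12 astrocyte markers was the lowest (11230 CPM, against 17279 to 23750 CPM). Its sum of the 10 neuron markers was the lowest too (1394 CPM, against 1831 to 3076 CPM). The 10 oligodendrocyte markers had a median log2 deviation of 1.60 in KO 73, against -0.34 to 0.53 in the other 7, while their summed 24534 CPM lay within the 20396 to 38503 CPM of the others. No marker of these 6 lists was at 0 counts in any library. In bulk RNA, fewer cells of a type and less RNA per cell cannot be told apart, and the part of these cell types in the members' values was not tested.

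Correlation with Foxj1 over the 8 astrocyte libraries is given as a description, over libraries that include those at the ends. Pearson's r of log2 CPM had a median of 0.888 over the other 62 tested members. It was at least 0.9 for 28 of them, against 2.86% of all genes, and below 0 for 6: Tekt5 (-0.56), Rsph6a (-0.39), Cfap36 (-0.36), Dnah17 (-0.09), Cfap97 (-0.05) and Cfap410 (-0.01). Outside the members, the 8 genes most like Foxj1 were Ccdc39 (0.995), Mns1 (0.995), Emb (0.993), Wdr78 (0.990), Calml4 (0.989), Ttc25 (0.988), 4833427G06Rik (0.988) and Gm16201 (0.988). Ccdc39 sets the spacing of the axoneme's repeats, Mns1 lies inside the doublets, Ttc25 serves the docking of outer dynein arms, and Wdr78 is the older symbol of the dynein intermediate chain gene Dnai4. Of the 100 genes most like Foxj1, 7 were members and 17 were on the lists of other cilium genes and ependymal markers. Most were on neither, but the lists do not hold every cilium gene. How many of the 100 belong to cilia was therefore not determined.

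Since most members moved together, their promoters were searched for X-box and forkhead letters, which ciliary transcription factors are known to bind. The E-box was searched beside these and is not credited to a ciliary factor. RefSeq windows (GRCm38.p6, 250 bases before to 50 after the gene's start) were matched for 52 members. The core letters of the X-box, GTTGCCA, which RFX factors bind, were found on either strand in 11 of the 52 (21.2%) and in 5.02% of all 27025 genes with a window. The full X-box, with both arms, was searched in a strict form only, its letters fixed except for a free base in each arm. This strict form was found in 0 members and 0.152% of genes. Looser forms with both arms were not searched, so whether members carry them was not tested. The forkhead letters GTAAACA were found in 4 members (7.69%, against 4.05% of genes), and the E-box CACGTG in 5 members (9.62%, against 8.09%). A match is a run of letters and not a shown binding site. The stretches below lie before the start and are shown because they put members with large ratios (Cfap161, Cfap44, Tekt1) beside members with small ones (Cfap298, Dnah7b, Cfap74), all with the same core. They are written 5′ to 3′ on the gene's strand, with the core, or its reverse complement, in capitals.
Tekt1, chr11:72361883-72361942, minus strand: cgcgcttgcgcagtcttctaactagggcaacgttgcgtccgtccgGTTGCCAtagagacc
Cfap161, chr7:83794863-83794931, minus strand: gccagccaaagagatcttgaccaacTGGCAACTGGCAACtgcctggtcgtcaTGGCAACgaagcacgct
Cfap44, chr16:44394644-44394795, plus strand: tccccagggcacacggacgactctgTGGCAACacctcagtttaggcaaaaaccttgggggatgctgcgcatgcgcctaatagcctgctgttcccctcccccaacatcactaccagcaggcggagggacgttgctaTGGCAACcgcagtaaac
Cfap298, chr16:90934876-90934935, minus strand: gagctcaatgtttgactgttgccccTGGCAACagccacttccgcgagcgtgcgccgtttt
Cfap74, chr4:155409178-155409237, plus strand: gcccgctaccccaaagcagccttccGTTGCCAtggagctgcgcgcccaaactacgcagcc
Dnah7b, chr1:46066665-46066724, plus strand: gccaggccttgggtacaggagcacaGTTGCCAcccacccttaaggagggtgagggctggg
The core occurred 3 times before Cfap161, whose ratio of KO 73 to WT 78 was 22.2, and 1 time before Tekt1, whose ratio was 8.53. It also occurred before Cfap74, whose ratio was 1.51, so the letters were found before members with large and with small ratios.

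KO and WT astrocytes did not differ in any member by edgeR's quasi-likelihood test with Benjamini-Hochberg adjustment over 18527 genes, where an adjusted p under 0.05 was called. Of the 63 members tested 0 were called, against 0.232% of all genes (0.146% higher and 0.0864% lower), and 2 had an unadjusted p under 0.05 (5.37% of all genes). DESeq2 and limma-voom also called 0. Cfap97d1 and Dnah2os did not pass the low-count filter. The median log2 fold change, KO minus WT, was 0.14 (0.0044 for all genes), with 48 members above 0 and 15 below (50.8% and 49.2% of all genes). Foxj1 had 7.72 ± 7.6 CPM in KO and 6.33 ± 3.5 CPM in WT (SD, n = 4 each), and its log2 fold change was 0.29 ± 0.66 (SE; adjusted p = 0.996). For Rsph1 it was 0.20 ± 0.63, for Tekt1 0.25 ± 0.57 and for Cfap126, which lies inside the doublets, 0.16 ± 0.61.

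The 2 members with an unadjusted p under 0.05 were Dnai1 and Tekt5, whose r with Foxj1 was 0.56 and -0.56. Dnai1, an intermediate chain of the outer arm, had 57.9, 59.2, 57.3 and 66.5 CPM in KO 132, 60, 62 and 73. It had 51.6, 50.2, 50.7 and 44.2 CPM in WT 56, 57, 64 and 78. All 4 KO values lay above all 4 WT values, which held for 1 member in 63 and for 1.82% of all genes. The reverse held for 0 members and 2.26% of all genes, and either for 4.08%. Its log2 fold change was 0.30 ± 0.11 (adjusted p = 0.743). Tekt5 had 0.89 ± 0.33 (adjusted p = 0.772), and its groups overlapped through KO 73.

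The members' median depended on the libraries at the ends. KO 73 and WT 78 were picked as the highest KO and the lowest WT library for these genes, so leaving them out moves KO down against WT by that choice; the values below describe the other 6 libraries and support no direction. KO 73 and WT 78 were also the only libraries read as female, so the other 6 are of the same sex. The part of sex in the values was not tested. Without KO 73 the median log2 fold change was -0.46, and without WT 78 it was -0.10. Without both it was -0.80, with 53 of 63 members below 0, while the median of all genes was -0.0094. Foxj1 was then at -0.996 ± 0.25 (adjusted p = 0.222), Dnah9 at -1.29 ± 0.27 (adjusted p = 0.133) and Tekt5 at 1.17 ± 0.25 (adjusted p = 0.135). Again 0 members were called by edgeR. Among these 6 libraries the summed ependymal markers were 255 to 551 CPM in KO and 590 to 1131 CPM in WT, and their part in the members' difference was not tested.

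**Figure D4:**
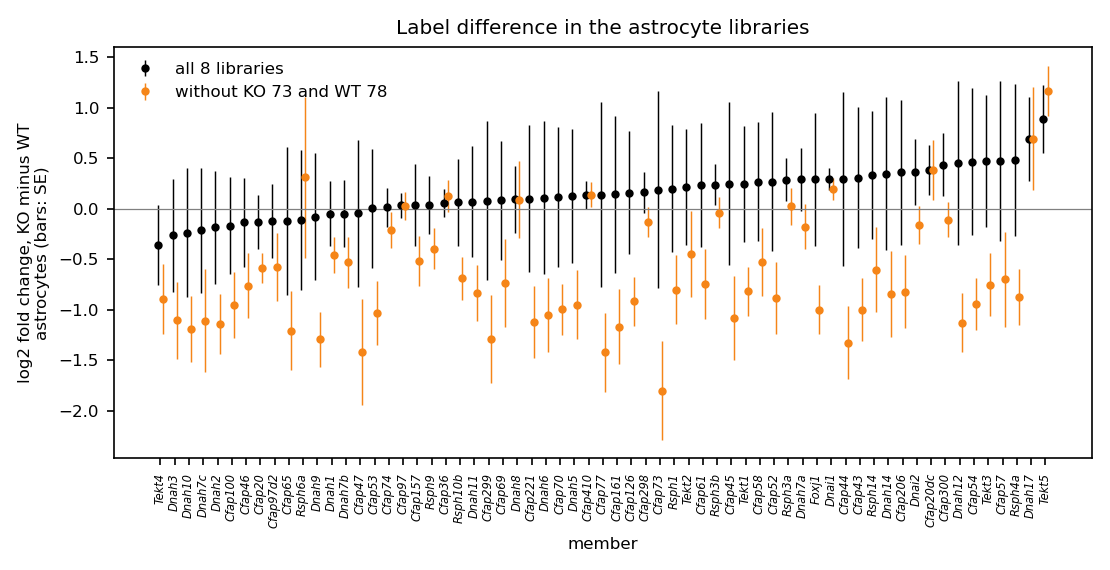
Points give the log2 fold change, KO minus WT astrocytes, of the 63 tested members with SE bars, sorted by the value with all 8 libraries (black) and without KO 73 and WT 78 (orange). The black points centre on a median of 0.14 and most orange points lie below 0, with a median of -0.80; Tekt5 is at the right end in both.

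In flowthrough most members had lower values in KO than in WT, and again none was called. All 65 were tested and 0 passed by edgeR, against 0.00476% of 20997 genes, while 2 had an unadjusted p under 0.05 (4.63% of all genes). The median log2 fold change was -0.66 (0.037 for all genes) with 58 members below 0 and 7 above (45.6% and 54.4% of all genes). In 48 members both KO values lay below both WT values and in 3 above, against 16.7% and 16.9% of all genes, or 33.6% either way. Foxj1 had 7.36 ± 0.89 CPM in KO and 16.1 ± 0.53 CPM in WT (SD, n = 2 each), and its log2 fold change was -1.13 ± 0.85 (edgeR adjusted p = 1). Tekt1 stood at 52.1 and 45.3 CPM in the KO libraries 132 and 60, against 96.4 and 108 CPM in the WT libraries 56 and 64, which gave -1.07 ± 0.75. Cfap298, which helps to assemble dynein arms, had -0.69 ± 0.27. Tekt5 had 0.58 ± 0.47 with overlapping groups. All 20 ependymal markers were below 0 as well (median -0.90), as were 11 of 12 choroid plexus markers (median -0.60), and their part was not tested. Markers of some other cells went the other way, with 10 of 10 endothelial (median 0.58) and 9 of 10 neuron markers (median 0.86) above 0. So did 9 of 10 oligodendrocyte (median 0.26) and 10 of 12 astrocyte markers (median 0.35). Microglia markers were above 0 for 7 of 10, with a median of 0.075 near that of all genes. None of these was called. With 2 mice a label, the spread was pooled over the 4 groups, so these standard errors include the wide spread of the astrocyte libraries.

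The interaction, which asks whether the label difference differs between fractions, was called for 0 of 65 members and 0% of all genes by edgeR, and 4 members had an unadjusted p under 0.05 (3.94% of all genes). Foxj1 had 1.41 ± 1.04 (adjusted p = 0.934) and Dnai1 0.58 ± 0.18 (adjusted p = 0.934). The median over the members was 0.76, with 61 of 65 above 0 (47.0% of all genes), and it was -0.14 without KO 73 and WT 78, which were left out for their values, and -0.38 with the mouse as a block. As KO 73 and WT 78 were read as female and all flowthrough libraries as male, sex enters this comparison, and its part was not tested.

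Most motile cilium genes were lower in captured astrocytes than in flowthrough of the same mouse: with the mouse as a block, edgeR called 44 of 65 lower, against 26.8% of all genes. Cfap126 had 35.0 CPM in astrocytes and 80.9 CPM in flowthrough of mouse 132, and 18.3 and 52.1 CPM in mouse 60. It had 47.6 and 108 CPM in mouse 56, and 62.0 and 119 CPM in mouse 64. Foxj1 showed the same direction in all 4 mice, as its values above show. The median over the members of log2 astrocytes minus flowthrough was -0.79 in mouse 132, -1.19 in mouse 60, -0.74 in mouse 56 and -0.46 in mouse 64. In all 4 pairs 50 of 65 members were lower (32.7% of all genes) and 4 were higher (31.1% of all genes).

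How many members passed depended on whether the mouse entered the fit. Without it, over all 12 libraries, 6 members were called lower and 4 higher by edgeR, against 24.4% and 24.8% of all genes (49.2% together). The median log2 fold change was -0.62, with 57 of 65 members below 0 (49.8% of all genes). KO 73 and WT 78, read as female, enter this fit on the astrocyte side only, as all flowthrough libraries were read as male. The part of sex in it was not tested. With the mouse as a block, to the 44 called lower came 5 called higher (24.7% of all genes), with a median of -0.82. Only the 4 mice with both fractions inform the blocked fit. In it Cfap126 fell by 1.21 ± 0.12 on the log2 scale (edgeR adjusted p = 5.1e-05), Tekt1 by 1.13 ± 0.12 (9.9e-05), Rsph1 by 0.97 ± 0.15 (5.9e-04) and Foxj1 by 0.82 ± 0.14 (9.8e-04). Without the block the same genes had -1.04 ± 0.48, -0.92 ± 0.44, -0.76 ± 0.49 and -0.64 ± 0.51 and did not pass. Leaving out KO 73 and WT 78, with no block, gave 39 lower and 6 higher (27.9% and 25.9% of all genes). Leaving out KO 73 alone gave 33 lower (27.9% of all genes), and leaving out KO flowthrough 132 alone gave 1 lower (17.3% of all genes). As KO 73 was singled out for its high values of these genes, its removal lowers the astrocyte level by that choice.

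The 10 members that passed without the block were split in direction. Higher in astrocytes were Cfap36 (0.55 ± 0.13, adjusted p = 0.00383), Dnai1 (0.40 ± 0.092, 0.00394), Cfap20dc (0.88 ± 0.22, 0.00649) and Rsph6a (1.99 ± 0.69, 0.0322, at 0.0198 to 0.758 CPM). Lower were the central apparatus gene Cfap74 (-0.61 ± 0.15, 0.00619), the sperm heavy chain gene Dnah17 (-1.20 ± 0.32, 0.00905) and the spoke genes Rsph10b (-1.05 ± 0.33, 0.0210) and Rsph9 (-0.62 ± 0.23, 0.0396). Cfap97 (-0.27 ± 0.10, 0.0466) and Cfap300 (-0.63 ± 0.24, 0.0467) were also lower; all these p-values are edgeR's, adjusted over all genes. Cfap36, Dnai1 and Cfap20dc were higher in the blocked fit too, together with Tekt5 and Cfap410, whereas Rsph6a and Dnah17 did not pass there.

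**Figure D5:**
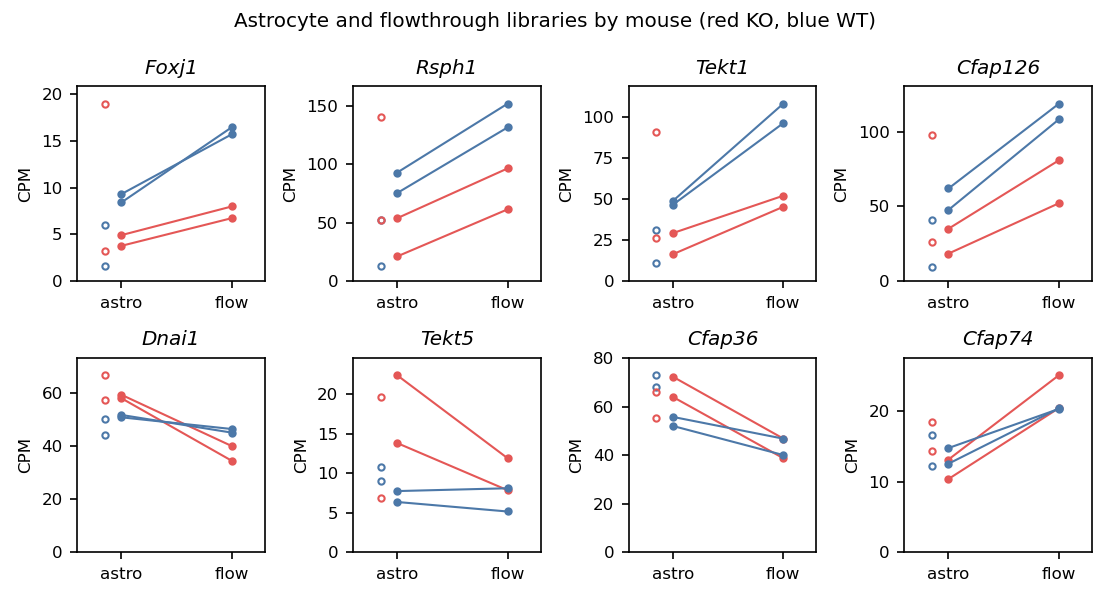
CPM of 8 members in astrocytes and flowthrough, with a line joining the libraries of 1 mouse (red KO, blue WT) and open circles for the 4 mice with an astrocyte library only. Foxj1, Rsph1, Tekt1, Cfap126 and Cfap74 go up from astrocytes to flowthrough in all 4 mice, while Dnai1 and Cfap36 go down in all 4.

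Other genes of cilia were counted in the same comparison, in which edgeR called 26.8% of all genes lower and 24.7% higher with the mouse block, and 24.4% and 24.8% without it. Of 35 further axoneme genes 28 were called lower and 1 higher in astrocytes with the mouse block (median log2 fold change -0.84), and 2 lower and 1 higher without it, which is below the share of all genes. Of 15 dynein assembly and docking factors 12 were lower with the block and 1 without. Genes of intraflagellar transport, the cargo system that all cilia use, had 9 of 28 lower and 6 higher with the block (median -0.13), which is near the shares of all genes. Without the block 3 of them were lower and 6 higher. Of 11 multiciliation regulators 5 were lower and 2 higher with the block, and 2 lower and 1 higher without it. With the block, the ependymal markers were lower for 17 of 20 and higher for 1 (median -0.92), beside a median of -0.82 for the members. Choroid plexus markers were lower for 12 of 12 (median -2.43) and microglia markers for 10 of 10 (median -3.82). Without the block 3 of 20 ependymal markers were called lower, which is below the share of all genes. The choroid plexus and microglia markers were all called lower without it too. Astrocyte markers were higher with the block for 12 of 12 (median 1.94). So were neuron markers for 10 of 10 (median 1.59) and oligodendrocyte markers for 10 of 10 (median 0.84). Endothelial markers were lower with the block for 10 of 10 (median -1.11). In KO against WT astrocytes, 0 genes of these cilium lists were called by edgeR; 0 had an unadjusted p under 0.05, except for 2 of the intraflagellar transport genes.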

How the data were processed

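Per the file headers, the authors deposited for each library a raw read count, a CPM and an RPKM value per gene, with exon coordinates and summed exon length. In the deposited files, CPM is the count times 1e+06 over the library total, and RPKM is that CPM per kilobase. The submitters' processing notes name STAR 2.5.1a, featureCounts 1.4.6-p5, Subread, bcl2fastq and the GRCm38 build; no source used here gives the strand setting or how multiply mapped reads were treated. Of the identifiers 40254 matched a symbol. Wdr63, Wdr78, Casc1, Maats1, Wdr66 and Ccdc173, older symbols of Dnai and Cfap genes, were kept apart, and Ppip5k2, with a Cfap synonym, was left out.

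Counts were tested with edgeR 4.0.16 (R 4.3.3; quasi-likelihood test, two-sided, TMM, filterByExpr with a minimum count of 10, Benjamini-Hochberg over all genes tested), which was tested on simulated data. KO against WT astrocytes used the 8 astrocyte libraries, and the other comparisons all 12 with 4 group means. Printed CPM values are TMM-scaled over the 12 libraries. Mouse numbers pair the fractions of the same animal, per the labels; the correlations of paired deviations from the group means were -0.02, 0.41, 0.15 and 0.28 for mice 132, 60, 56 and 64. The main fit had no block. Alternatives were RLE or library-size scaling, other filters, DESeq2 1.42.0, limma-voom (limma 3.58.1), the mouse block and left-out libraries.

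The members and lists were chosen with earlier results of these data known. Genes named are Foxj1, the 3 highest members by RPKM in a role, members that passed, and the 8 genes most like Foxj1; other genes were named, and the genes whose fold changes are printed were picked, after their values were seen.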

Additional observations from a re-analysis of the deposited data

Results flagged for a closer look

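In groups of 4 libraries, a value was listed when its gap to the nearest other library was too large a share of the group's range by Dixon's 95% limit. Over 39 named members and the KO and WT astrocyte groups, 78 sets were examined and 10 were listed, where chance alone would list about 3.9. In 7 of them KO astrocytes 73 was far above the other KO astrocytes: Foxj1 at 19.0 CPM, Rsph4a at 64.6 CPM, Cfap298 at 45.2 CPM, Dnah12 at 18.3 CPM, Dnah9 at 9.78 CPM, Cfap73 at 8.09 CPM and Dnah14 at 1.63 CPM. WT astrocytes 78 was far below the other WT astrocytes for Rsph10b at 2.71 CPM. Dnah8, the heavy chain of sperm flagella, was high in KO astrocytes 132 at 1.86 CPM and in WT astrocytes 64 at 1.96 CPM. The members move together between libraries, so these are not separate events.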

How the results depend on the processing

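No member was called in KO against WT astrocytes, in KO against WT flowthrough or in the interaction under any alternative run, DESeq2 and limma-voom included. With KO 73 and WT 78, picked for their values of these genes, both left out of the KO and WT astrocyte comparison, the median was -0.80, and Foxj1 (-0.996), Dnah5 (-0.95), Dnah12 (-1.13), Dnai2 (-0.16), Tekt1 (-0.82), Rsph1 (-0.80), Cfap126 (-0.91), Cfap161 (-1.17) and Cfap298 (-0.13) turned below 0. Leaving out 1 library at a time gave -0.68 to 0.55 for Foxj1, -0.60 to 0.42 for Dnah5, -0.76 to 0.76 for Dnah12, -0.52 to 0.51 for Tekt1, -0.47 to 0.52 for Rsph1, -0.59 to 0.45 for Cfap126, -0.80 to 0.60 for Cfap161, -0.038 to 0.28 for Cfap298 and -0.019 to 0.14 for Cfap36. Members called lower in astrocytes than in flowthrough numbered 18 with limma-voom (26.9% of all genes), 39 without both libraries (27.9%), 44 with the replicate block over 12 libraries (26.8%) and 44 over the 8 libraries of paired mice (27.8%), and 1 (without KO flowthrough 132, 17.3%) to 33 (without KO astrocytes 73, 27.9%) with 1 library left out. Members called higher numbered 2 with GENCODE symbols only, an alternative chosen after seeing the data, which leaves 60 members (24.8% of all genes). The interaction median was -0.14 without both libraries and -0.38 with the replicate block. Where no construction shows it, the cause was not tested. Of 644 alternative values of named genes, 555 kept their direction and side of the threshold.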
